A study of Mus musculus with 6 samples.

Results

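Transcripts of 10 circadian clock genes were described in whole pancreas of mice with and without Rkip-1, the Raf kinase inhibitor encoded by Pebp1. The genes were Per1, Per2, Per3, Cry1, Cry2, Clock, Nr1d1, Nr1d2, Dbp and Nfil3, and their members on the array were the probe sets that the platform annotation assigns to exactly 1 gene. This gave 22 of 45101 probe sets, and all 10 genes were represented. The genes were chosen on a measured value of these arrays, the higher Per1 level in the knockout, so the differences between genotypes at these genes are given as a description, without p-values. The question set for them was whether genes that peak at opposite times of day moved as a shifted clock would move them.

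Arrays came from 3 Rkip-1 knockout (KO) and 3 wild-type (WT) samples, labelled biological replicates, of 8-week-old mice from 1 colony on a C57BL/6 background. No other allele, agent or treatment is named for either group. The sources used here do not give the knockout construct, the sex of the mice, the number of mice behind a sample or the hour at which the pancreas was dissected. Whole pancreas is mostly acinar tissue, with islets, ducts, stroma and vessels in smaller amounts. Values are on the log2 scale, after the normalization called RMA, and 1 unit is a doubling.

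The mammalian clock is a feedback loop of transcription that runs in almost every cell. The proteins Clock and Bmal1 (gene Arntl) bind E-box elements and switch on Per, Cry, Nr1d and Dbp genes, and Per and Cry proteins then hold Clock and Bmal1 back. A second loop runs through ROR elements, where Nr1d1 and Nr1d2 (the Rev-erb receptors) repress and ROR receptors activate Arntl, Clock, Npas2, Nfil3 and Cry1. Genes driven from E-boxes or D-boxes therefore tend to peak at about the opposite time of day to genes driven from ROR elements. The hours differ within a class. Cry1 carries E-boxes as well and peaks late. Per1 also responds directly to glucocorticoids and to cAMP through CREB, outside the loop.

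Sequences close to the start sites of the members were searched for these elements. Of the 10 genes, 9 had an entry in the RefSeq promoter table of build GRCm38.p6, with 12 start sites in all, and Per2 had none. The window ran from 250 bases before to 50 bases after each start, and both strands were searched. The letters searched were CACGTG (E-box), CACGTT (E′-box), TTATGTAA and TTACGTAA (D-box), TGACGTCA (CRE, the site of CREB) and TAGGTCA (core of the ROR element). Shown are the 250 bases before the start of Per1, of its paralog Per3, and of Cry1 and Nfil3, whose KO and WT means lay farther apart than those of any other member except Per1. They run 5′ to 3′ along the gene, and capitals mark the matches.
Per1 (chr11:69098699-69098948, plus strand): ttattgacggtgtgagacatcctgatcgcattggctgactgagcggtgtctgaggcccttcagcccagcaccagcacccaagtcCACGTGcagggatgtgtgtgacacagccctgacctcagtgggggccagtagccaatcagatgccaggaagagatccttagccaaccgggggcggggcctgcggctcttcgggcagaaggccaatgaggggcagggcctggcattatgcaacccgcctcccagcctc
Per3 (chr4:151044666-151044915, minus strand): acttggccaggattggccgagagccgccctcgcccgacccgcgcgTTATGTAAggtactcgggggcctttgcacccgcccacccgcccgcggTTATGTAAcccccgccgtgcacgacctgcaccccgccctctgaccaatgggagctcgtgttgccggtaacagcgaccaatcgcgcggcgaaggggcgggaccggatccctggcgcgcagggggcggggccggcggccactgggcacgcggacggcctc
Cry1 (chr10:85185055-85185304, minus strand): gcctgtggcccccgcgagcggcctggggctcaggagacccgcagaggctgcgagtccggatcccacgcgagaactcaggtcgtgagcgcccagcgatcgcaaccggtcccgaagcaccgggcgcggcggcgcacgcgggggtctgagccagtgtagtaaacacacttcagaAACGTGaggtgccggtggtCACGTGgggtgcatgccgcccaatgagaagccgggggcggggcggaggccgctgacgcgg
Nfil3 (chr13:52981040-52981289, minus strand): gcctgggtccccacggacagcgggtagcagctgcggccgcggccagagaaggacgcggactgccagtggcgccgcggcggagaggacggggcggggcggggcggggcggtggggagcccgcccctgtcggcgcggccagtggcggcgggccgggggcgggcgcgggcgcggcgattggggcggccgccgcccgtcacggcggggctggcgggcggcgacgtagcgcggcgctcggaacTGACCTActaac
Per1 held 1 E-box that began at -166 from the start, and Cry1 held an E-box at -60 and an E′-box at -79. Per3 held no E-box but a pair of D-boxes of the form TTATGTAA, at -205 and -158. Nfil3 held the ROR element core at -12, read on the opposite strand. An E′-box also stood in Cry2 at -166 and in Nr1d1 at -28. None of these matches overlapped another, and the second Per1 start and the windows of Clock, Nr1d2 and Dbp held none of the letters. Over all 32851 windows of the table, 7.15% held the E-box, 4.68% the E′-box, 0.938% TTATGTAA, 0.119% TTACGTAA, 1.79% the CRE and 2.61% the ROR core. A match is a run of letters and not evidence that a factor binds there. Elements outside the window were not searched, so a window without a match does not mean that the gene lacks the element. The classes used below follow the element known to drive a gene and not these matches.

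The targeted gene followed the labels. The brightest Pebp1 probe set lay between 5.71 and 6.50 in the KO arrays and between 9.81 and 10.01 in the WT arrays. Array medians were 2.97 to 3.02, and the upper quartile of all values was 4.54. There are no detection calls, so a fold against a level below that quartile can be too small. Acinar and islet markers were bright, with 5 of 5 and 6 of 6 measured markers above the upper quartile, and of the lymphoid markers 0 of 5 were. Xist, transcribed in females, was high (9.09 to 9.79) in KO replicates 2 and 3 and WT replicate 3 and low (at most 4.43) in the other arrays.

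Per1, a period gene that answers quickly to outside signals, rose in KO. Its only single-gene probe set, 1449851_at, measured 4.35, 4.26 and 4.35 in KO replicates 1, 2 and 3, and 3.47, 3.35 and 3.68 in the WT replicates. All 3 KO values lay above all 3 WT values, and the KO arrays lay closer together than the WT arrays. The means were 4.32 ± 0.05 and 3.50 ± 0.17 (SD, n = 3 each), a 1.77-fold difference with a 95% interval of 1.5 to 2.08. Both means lie below the upper quartile, so this fold can be too small. It can also be too large, because Per1 was chosen for this difference on the same arrays. In bulk tissue, fewer cells of a type and less RNA per cell cannot be told apart. Among arrays with high Xist the Per1 difference was 0.62 (2 KO, 1 WT) and among those with low Xist 0.94 (1 KO, 2 WT). Since the groups do not overlap, the sign in any such split was fixed in advance.

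By limma, 1 of the 22 clock probe sets, that of Per1, passed an adjusted p under 0.05, where 0.0977% of all 45037 tested probe sets did, and 0.0733% as higher in KO. Per1 no longer passed when any 1 of KO replicates 1, 2 and 3 or WT replicates 1 and 2 was left out, or with the Xist level as a covariate, although its difference stayed between 0.75 and 0.91. The groups did not overlap in 5 of the 22 probe sets, 4 higher and 1 lower in KO, against 13.5% of all probe sets tested, 6.97% higher and 6.51% lower. Since the list was chosen with this contrast known, nothing is read from these counts. The median difference of the 22 was 0.00, and that of all probe sets tested was 0.01.

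**Figure D1:**
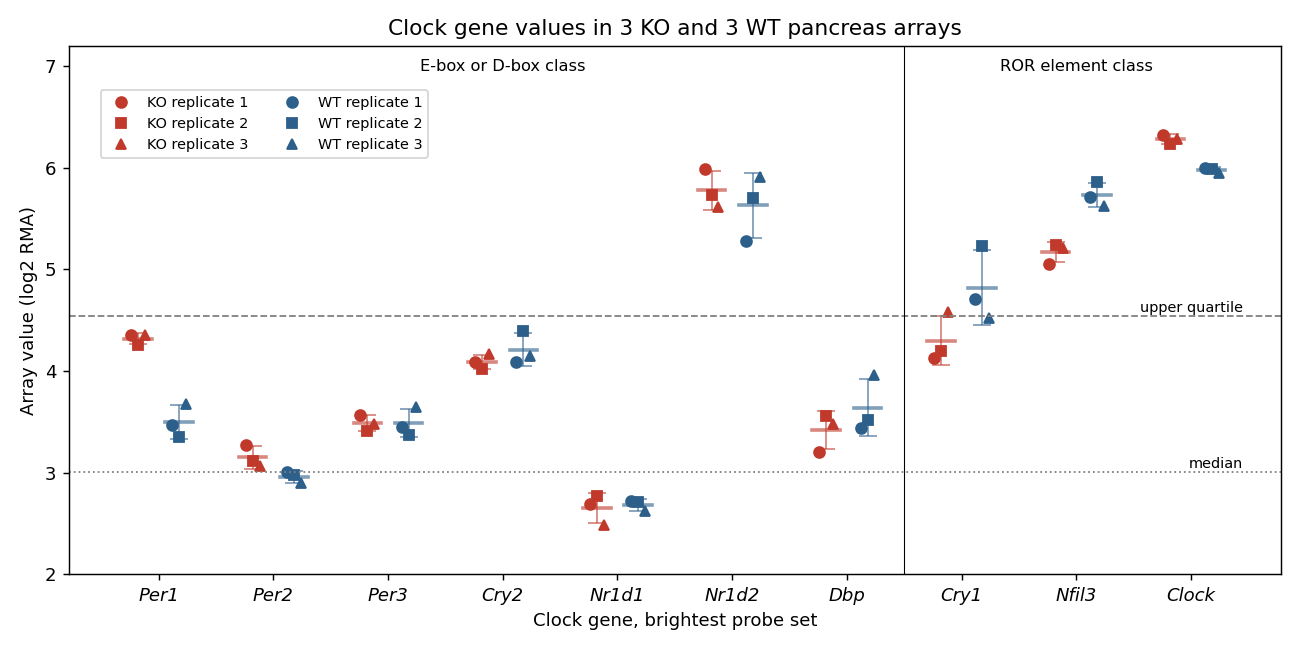
Log2 values (vertical axis) of the brightest probe set of each of the 10 clock genes (horizontal axis) in KO (red) and WT (blue) arrays; symbols mark replicates, thick bars the mean and thin bars 1 SD (n = 3). Per1, Per2 and Clock are higher and Nfil3 lower in every KO array than in every WT array, and most E-box or D-box genes lie between the median and the upper quartile of all values.

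The other period genes, which share with Per1 the task of repressing Clock and Bmal1, were dim and differed little. The brightest Per2 probe set measured 3.27, 3.11 and 3.07 in KO and 3.01, 2.98 and 2.90 in WT. These values lie close to the array medians and do not overlap, with a difference of 0.19 (95% interval -0.02 to 0.40). The remaining Per2 probe sets differed by 0.00 and -0.13, with overlapping groups, and the mean over all 3 differed by 0.02. Per3 had 6 probe sets, the brightest at 3.49 ± 0.08 in KO and 3.49 ± 0.14 in WT, and their differences ran from -0.01 to 0.14 with overlapping groups in each. The 95% interval at the brightest Per3 probe set ran from -0.23 to 0.22.

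The cryptochromes, the main repressors within the complex with Per proteins, had lower means in KO. Cry1 measured 4.13, 4.20 and 4.58 in KO and 4.71, 5.23 and 4.52 in WT. KO replicate 3 lay above WT replicate 3, so the groups overlap, and WT replicate 2 was the highest of the 6. The difference was -0.52 (95% interval -0.93 to -0.11), and it ran from -0.67 to -0.31 as single arrays were left out. It was -0.13 among the arrays with high Xist (2 KO, 1 WT) and -0.84 among those with low Xist (1 KO, 2 WT), which include WT replicate 2. Such splits are unstable: between high and low Xist the sign changed for Nr1d2 (-0.24 and 0.50) and Per3 (-0.20 and 0.15). Cry2 measured 4.09, 4.02 and 4.17 in KO and 4.09, 4.39 and 4.15 in WT, with overlapping groups and a difference of -0.12 (-0.35 to 0.11).

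Clock, the DNA-binding partner of Bmal1, gave different answers at different probe sets. Its brightest probe set, 1418659_at, measured 6.32, 6.23 and 6.28 in KO and 6.00, 5.99 and 5.95 in WT. These groups do not overlap, and the difference was 0.30 (95% interval 0.11 to 0.49). Probe sets 1418660_at and 1435775_at, of nearly the same brightness, differed by 0.00 (-0.27 to 0.27) and 0.03 (-0.24 to 0.31) with overlapping groups. At both of them KO replicate 1 was the lowest of the 6 arrays, while at 1418659_at it was the highest. The mean over all 4 Clock probe sets differed by 0.06.

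The Rev-erb receptors, repressors that link both loops, showed no common direction. Nr1d2 was well measured at 1416958_at, with 5.99, 5.73 and 5.61 in KO and 5.28, 5.70 and 5.91 in WT. The groups overlap over most of their range, and the difference was 0.15 (-0.22 to 0.51). A dimmer Nr1d2 probe set lay below the array medians at 2.40 ± 0.15 in KO and 2.14 ± 0.13 in WT, and its groups just missed each other. Nr1d1, a strongly cycling gene in most organs, lay between 2.48 and 2.77 in all 6 arrays, below the array medians, with a difference of -0.04 (-0.26 to 0.19). At that level a change of either sign may not be seen.

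Dbp and Nfil3 are bZIP factors that act in opposite ways on the same D-box sites, Dbp as activator and Nfil3 (E4BP4) as repressor. Dbp measured 3.20, 3.56 and 3.48 in KO and 3.44, 3.52 and 3.96 in WT at its brighter probe set. The groups overlap, KO replicate 1 was lowest and WT replicate 3 highest, and the difference was -0.22 (-0.56 to 0.11). The dimmer Dbp probe set differed by -0.12 (-0.35 to 0.10). Nfil3 measured 5.05, 5.24 and 5.21 in KO and 5.71, 5.86 and 5.62 in WT. All KO values lay below all WT values, by a mean of -0.56 on the log2 scale (95% interval -0.79 to -0.34), or 1.48-fold, and Nfil3 did not pass by limma over all probe sets. The Nfil3 difference ran from -0.62 to -0.50 as single arrays were left out. It was -0.40 among arrays with high Xist (2 KO, 1 WT) and -0.73 among those with low Xist (1 KO, 2 WT), with the sign fixed in advance.

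**Figure D2:**
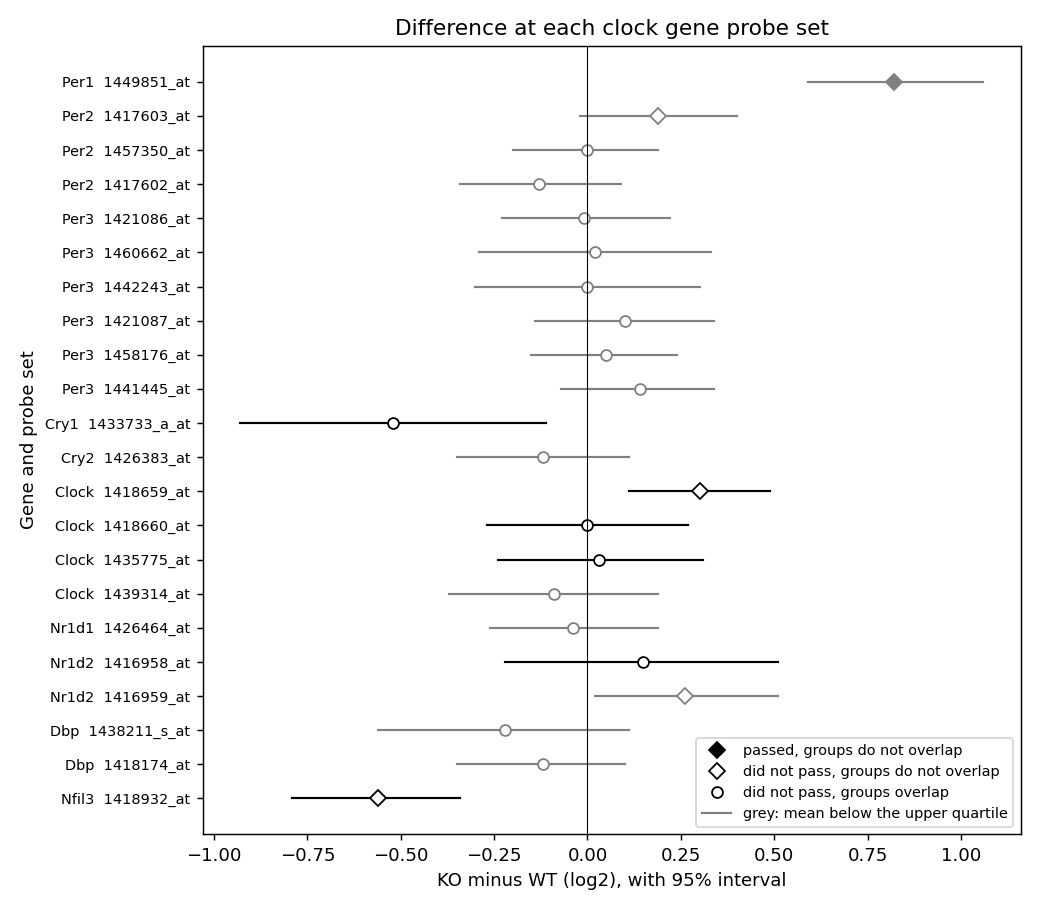
Difference between KO and WT (horizontal axis, log2) with its 95% interval at each of the 22 clock probe sets (vertical axis); a filled symbol passed by limma, a diamond marks groups that do not overlap, and grey marks a mean below the upper quartile of all values. Per1 is the 1 filled symbol, Nfil3 and Cry1 have the lowest differences, and 16 of the 22 probe sets are grey.

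Set out by the element known to drive them, and taken at the brightest probe set, members of 1 class did not share a sign. Of the 7 E-box or D-box members, by brightest probe set, Per1 differed by 0.82 and the other 6 by -0.22 to 0.19, with a median of -0.02 over those 6. Only 1 of these 7, Nr1d2, had a mean above the upper quartile. The 3 ROR element members were all above it, and they differed by -0.56 for Nfil3, -0.52 for Cry1 and 0.30 for Clock. The higher Clock value rests on 1 probe set, and the mean over all Clock probe sets differed by 0.06. The direction in which a change of phase would move a gene depends on the hour and on when that gene peaks. Genes of 1 class do not all peak at the same hour, so no verdict on phase is drawn from the signs. Here 3 of the 7 E-box or D-box members were higher and 4 lower in KO, and 1 of the 3 ROR element members was higher and 2 were lower. These counts include differences near 0, such as -0.01 for Per3 and -0.04 for Nr1d1, whose sign says little. All 6 arrays are single time points of unstated hour, so phase, amplitude and mean level cannot be told apart. A change of phase was not tested.

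Genes of the same classes outside the members gave values on both sides of 0. Arntl, which encodes Bmal1, measured 5.50, 5.48 and 5.69 in KO and 5.82, 5.72 and 5.84 in WT. Its groups do not overlap, and the difference was -0.24 (95% interval -0.45 to -0.02), lower in 3 of 3 KO arrays, with an adjusted p of 0.526 by limma. A dimmer Arntl probe set differed by -0.01. Npas2, the partner that can stand in for Clock, lay near the array medians and differed by 0.02 (-0.30 to 0.33). Of the D-box factors related to Dbp, Tef differed by -0.19 (-0.44 to 0.06) and Hlf, which was dim, by 0.13 (-0.07 to 0.34). Ciart, a repressor of Clock and Bmal1, differed by 0.04 (-0.15 to 0.24), and the deubiquitinase Usp2, which cycles in many organs, by 0.17 (-0.03 to 0.37).

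**Figure D3:**
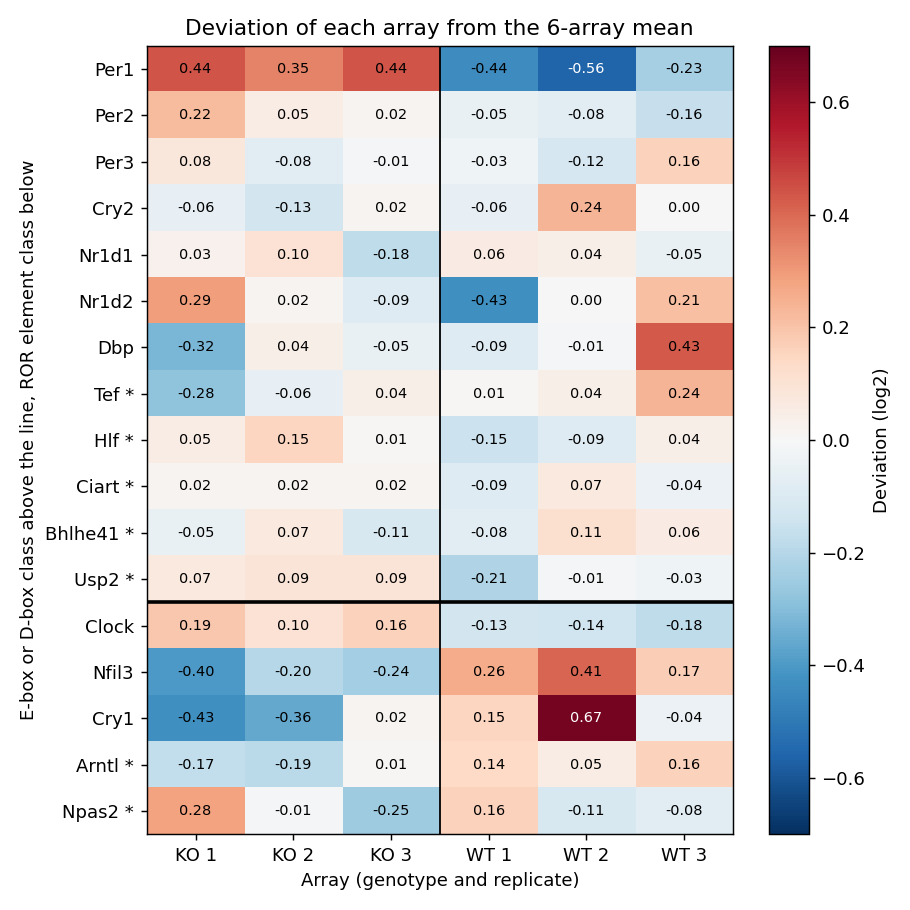
Deviation of each array (columns) from the mean of the 6 arrays, in log2 units (colour and printed value), for genes of the E-box or D-box class (above the thick line) and the ROR element class (below it); a star marks a gene outside the 10 members. Per1 runs from 0.35 to 0.44 in KO and from -0.56 to -0.23 in WT, Clock, Per2 and Usp2 also lie above 0 in all KO and below 0 in all WT arrays but by smaller amounts, Nfil3 and, less evenly, Cry1 and Arntl run the other way, and the remaining rows mix signs within a genotype.

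Arrays of 1 genotype also differed among themselves, and the genes did not all follow 1 order. Dbp and Tef were both lowest in KO replicate 1, at -0.32 and -0.28 from their 6-array means, and both highest in WT replicate 3, at 0.43 and 0.24. Nr1d2 instead was highest in KO replicate 1, at 0.29, and lowest in WT replicate 1, at -0.43. Cry1 was highest in WT replicate 2, at 0.67, where Per1 was lowest, at -0.56. Among the WT arrays Cry1 (0.15, 0.67 and -0.04) and Nfil3 (0.26, 0.41 and 0.17) ran in the reverse order of Per1 (-0.44, -0.56 and -0.23). Clock, Arntl and Npas2, of the same class as Cry1 and Nfil3, did not. This order was picked out after the values were seen. Over the ROR element members the median deviation was -0.40, -0.20 and 0.02 in KO replicates 1, 2 and 3 and 0.15, 0.41 and -0.04 in the WT replicates. Over the E-box or D-box members it was 0.08, 0.04 and -0.01 in KO and -0.06, -0.01 and 0.00 in WT.

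The wider clock list held 22 further genes, of kinases, ubiquitin ligase parts, ROR receptors and clock outputs, and 20 were measured. By limma 0 of the 20 passed, where 0.132% of 18193 genes did by their brightest probe set, and 1, Arntl, had an unadjusted p under 0.05 (10.1% of all genes). By brightest probe set their differences ran from -0.24 to 0.24 with a median of 0.00, as in all genes. The groups did not overlap in 3 of the 20, against 14.4% of all genes, with Usp2 higher and Arntl and Csnk1d lower. Of the genes not yet described, the 4 of smallest p were Btrc, a ubiquitin ligase part that acts on Per proteins, at 0.22 (0.00 to 0.44), the Bmal1 paralog Arntl2 at 0.24, Timeless at -0.19 and the Per kinase Csnk1d at -0.14. The output gene Tspan4 differed by -0.08. Their adjusted p ran from 0.58 for Btrc to 0.905 for Tspan4.

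Several of these genes had probe sets that disagreed. Csnk1d was lower by -0.14 at its brightest probe set, 1437690_x_at, and higher by 0.39 at 1418889_a_at, and the groups overlapped at neither. Tef differed by -0.19 at 1424175_at and by 0.16 at 1450184_s_at, where all KO values lay above all WT values. Usp2 differed by 0.17 and -0.30 at its 2 probe sets. Arntl2 was higher by 0.24 at its brightest probe set, with overlapping groups, and by 0.46 at the dimmer 1429688_at, where the groups did not overlap. The receptor gene Rora differed by 0.19 at its brightest probe set, by 0.40 without overlap at the dim 1424035_at and by -0.24 at 1420583_a_at. By limma 0 of these probe sets passed, the lowest adjusted p being 0.276, for Arntl2 at 1429688_at. Probe sets other than the brightest, and Rora, were chosen after their values were seen.

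Per1 also belongs to the genes induced by glucocorticoids, and 12 others of that kind were measured. By limma 0 of the 12 passed (0.132% of all genes), 5 had an unadjusted p under 0.05 (10.1% of all genes), and the median difference was 0.00. Fkbp5, a chaperone among the most used markers of the glucocorticoid receptor, differed by 0.07 (-0.18 to 0.32), and Tsc22d3 (GILZ) by -0.16 (-0.42 to 0.09). The 4 of smallest p were all lower in 3 of 3 KO arrays, and 7.56% of all genes had groups that did not overlap and were lower. The remaining gene of the 5, Mt2, had a higher mean in KO, by 2.60, and Mt1 by 1.83, both with overlapping groups. Ddit4 (REDD1), an inhibitor of mTORC1 that stress also induces, measured 5.76, 6.42 and 6.67 in KO and 8.67, 8.03 and 6.90 in WT, a difference of -1.58 (adjusted p 0.276). Without WT replicate 3 the Ddit4 difference was -2.07 and passed, at an adjusted p of 0.0473, where the alternatives gave 0.0473 to 0.622. The cell cycle inhibitor Cdkn1a differed by -0.89 (adjusted p 0.276), Errfi1 by -0.58 (0.389) and the phosphatase Dusp1 by -0.63 (0.426).

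Among 12 cAMP-responsive and immediate early genes, 0 passed by limma, 5 had an unadjusted p under 0.05 (10.1% of all genes), and the median difference was 0.01. Dusp1, described above, stands in both lists and is counted in each. Sik1, a kinase induced by CREB that restrains CREB's coactivators, measured 3.76, 3.61 and 3.87 in KO and 3.42, 3.52 and 3.47 in WT. Its groups do not overlap, and the difference was 0.28 (0.06 to 0.49, adjusted p 0.454). Nr4a1 differed by 0.13 and Fos by -0.38, both with overlapping groups. Junb was higher by 1.04 from a WT level below the array medians (adjusted p 0.389). It measured 4.44, 2.88 and 3.34 in KO and 2.64, 2.44 and 2.46 in WT, so KO replicate 1 stood well above the rest. Ier2, in contrast, was lower by -0.62 (adjusted p 0.191) and Egr1 by -1.10 (adjusted p 0.296). The groups did not overlap in 6 of the 12, 3 higher and 3 lower, against 6.87% higher and 7.56% lower among all genes. With the replicate number as a block, Egr1 passed, at an adjusted p of 0.0207, where the alternatives gave 0.0207 to 0.608.

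**Figure D4:**
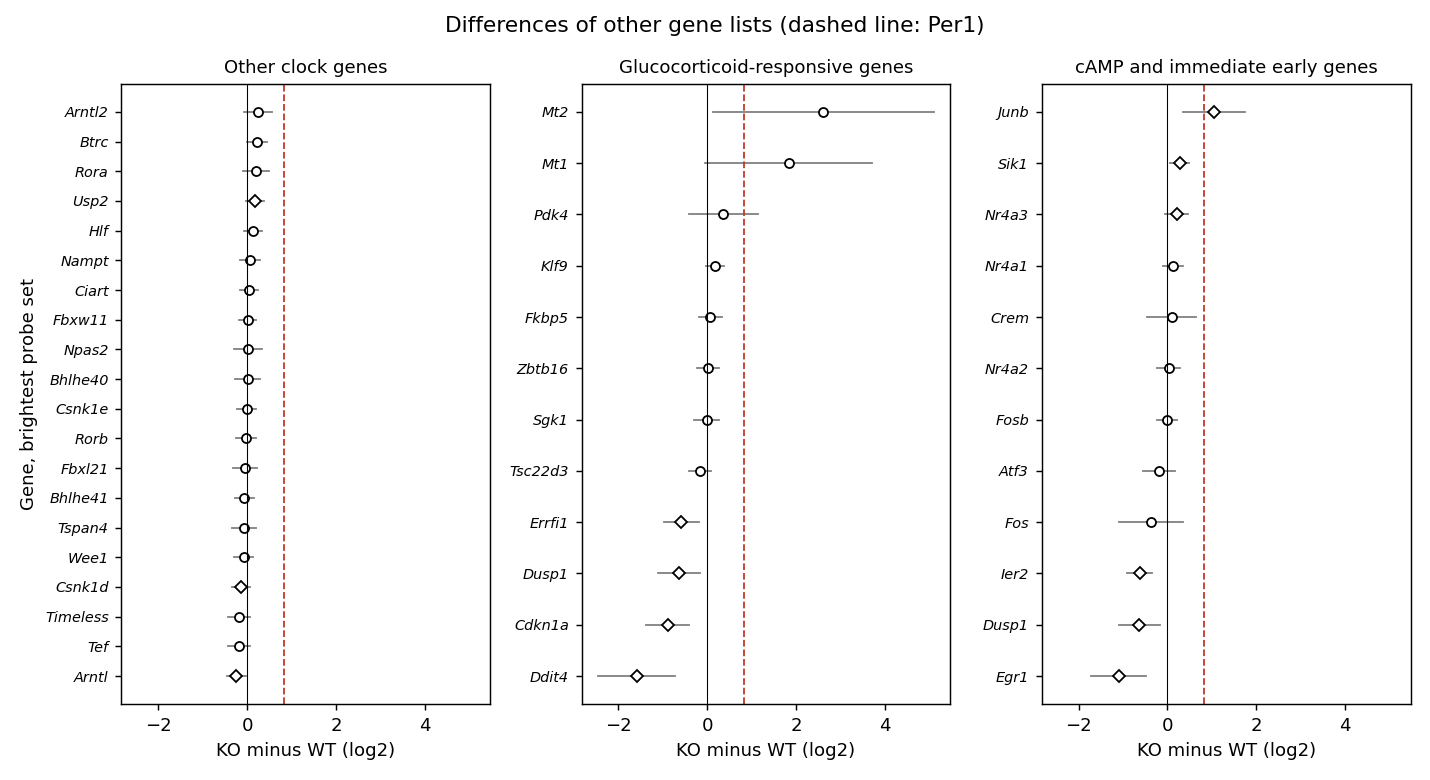
Difference between KO and WT (horizontal axis, log2) with 95% intervals for the measured genes (vertical axis) of the wider clock, glucocorticoid-responsive and cAMP or immediate early lists, each by its brightest probe set; diamonds mark groups that do not overlap and the dashed line marks Per1 at 0.82. By limma no gene of the 3 lists passed, and the wider clock genes lie within -0.24 to 0.24.

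Genes whose values over the 6 arrays most resembled those of Per1 were sought among 7149 genes with a mean above the upper quartile, members left out. Of the 20 wider clock genes, 11 were dimmer than that and were not among those compared. The highest Pearson r with Per1 were 0.998 for Flot1, 0.996 for Abl2, 0.993 for Ivns1abp, 0.992 for Tcl1b3 and 0.991 for Zfp764. These 5 were higher in KO by 0.19 to 0.49, a direction fixed by choosing them for likeness to Per1, and 0 of them passed by limma. For Dbp the highest were Ndufb6 (0.993), Aifm1 (0.984), Fchsd2 (0.984), Immp1l (0.981) and Sap30l (0.980), which differed by -0.33 to -0.05. These values describe the 6 arrays and share their normalization.

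Summed cell type markers did not overlap between genotypes in 2 of 9 lists. The summed linear level of 5 stellate and fibroblast markers was 2304 to 3324 in KO and 3430 to 4486 in WT, without overlap. Most of this sum is Col3a1, at log2 values of 10.68 to 11.18 in KO and 11.28 to 11.66 in WT. Means were lower in KO for 5 of the 5 stellate and fibroblast markers. They were also lower for 5 of 5 acinar and 6 of 6 islet markers, and for 9126 of all 18193 genes. Among the stellate and fibroblast markers, Dcn and Pdgfra had overlapping groups. The sum of 5 acinar markers was 62014 to 62606 in KO and 63684 to 64130 in WT, most of it at the compressed top of the scale. The fat marker sums overlapped, at 537 to 846 and 733 to 1428. The part of these markers in the differences of Per1, Nfil3 and Cry1 was not tested.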

How the data were processed

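Transcripts were measured on 6 arrays, 3 KO and 3 WT, grouped by sample title. The authors deposited log2 values, made with RMA in affy per the submitters' processing notes, with no versions or settings given in the sources used here. RMA brings the single probes of all arrays to the same distribution before they are summarized into probe sets, which can hide a change common to most transcripts. The series matrix held 45101 probe sets, of which 64 Affymetrix controls were left out. Of all probe sets, 34958 had 1 gene symbol, 932 several and 9211 none. Of the 34958, 34754 took the symbol that the RefSeq table of GRCm38.p6 gives their Entrez identifier, whether or not it differed. The others kept the symbol of the platform annotation. KO minus WT was fitted over 45037 probe sets in limma 3.58.1 (lmFit, eBayes; R 4.3.3), two-sided and without covariates, with Benjamini-Hochberg adjustment and a threshold of 0.05. Intervals at 95% come from limma's moderated errors (9.53 degrees of freedom). If samples of a group are not separate mice, the spread may be technical. A gene outside the members was taken at its brightest probe set.

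The members, lists and tests were chosen with earlier results of these data known. Named were all members, 7 wider clock genes always and 4 more by smallest p, 2 glucocorticoid and 3 cAMP genes always and 4 more of each list by smallest p, and the 5 genes most like Per1 and Dbp. Alternatives were a second quantile normalization, equal medians, removal of dim probe sets or of suffixed probe sets (_s_at, _x_at, _a_at), array weights, limma's trend and robust options, a replicate block, the Xist covariate, gene means, each array left out and an adjusted p under 0.1. The fit was tested on simulated data, in which 200 of 45037 probe sets differed: it recovered 82% of those set 1 log2 unit apart and 100% of those set 2 apart, with 9 false calls among 191. Figures used matplotlib 3.10.9.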

Additional observations from a re-analysis of the deposited data

How the results depend on the processing

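The count of clock probe sets past the threshold was 1. It was 0 with the Xist covariate and 0 to 1 with single arrays left out, fits with less power, and 1 under the other alternatives, the replicate block and an adjusted p under 0.1 among them. The wider clock list stayed at 0 under every alternative run. The glucocorticoid list gave 0 to 1 with single arrays left out, and the cAMP and immediate early list gave 1 with the replicate block, and both gave 0 otherwise. Over all probe sets the main count of 44 became 16 to 41 with single arrays left out, 23 with the Xist covariate, 25 without suffixed probe sets and 23 of 18193 genes by gene means. Of 305 recomputed differences at the 22 clock probe sets, 302 moved by less than 1 SD of the replicates. The other 3 were at Clock and Per2. Clock at 1418659_at was at 0.36 after a second quantile normalization and 0.06 by gene mean. Per2 was at 0.02 by gene mean, and the other probe sets of both genes differed less. Per1 kept its sign throughout, but with single arrays left out that sign was fixed in advance, since its groups do not overlap. Deviations of same-numbered KO and WT arrays from their group means correlated at 0.188, -0.031 and -0.082, so the numbers were not taken to pair the samples. The number of arrays and the dimness of 16 of 22 clock probe sets limit what could be seen.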

Other observations

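The metallothioneins Mt1 and Mt2, small metal-binding proteins that glucocorticoids, zinc and inflammation induce, varied more between arrays of 1 genotype than any of the clock genes described. They were chosen after their values were seen. Mt2 measured 8.51, 11.28 and 10.17 in KO replicates 1, 2 and 3 and 5.75, 6.02 and 10.39 in the WT replicates. WT replicate 3 lay within the KO range, so the groups overlap, and the difference of 2.60 did not pass (limma, adjusted p 0.557). Mt1 followed the same split, with 7.54 and 8.87 in WT replicates 1 and 2 and 11.30 in WT replicate 3, against 9.88 to 12.21 in KO (adjusted p 0.589). In Per1 too, WT replicate 3 was the highest of the WT arrays, at 3.68, but it stayed below all KO arrays.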
